A study of Mus musculus with 16 samples.

Results

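Broad regions of open chromatin were collected from ATAC-seq peak lists of 8 mouse tissues (lung, kidney, brown and white adipose, muscle, heart, spleen and liver), each from fed and from fasting animals. In each of the 16 lists, rows that share chromosome, start and end describe 1 region, and every row gives 1 summit, a local maximum of Tn5 insertion within that region. A region was called broad when it had 6 or more summits. Under this rule 66219 of the 3007809 listed regions (2.20%) were broad, and another 57261 (1.90%) lay just outside it with exactly 5 summits. The members were thus chosen by the number of summits, so that number, and the width and strength that go with it, are given below as description without a test.

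The animals were male C57BL/6 mice without a genetic change, bought at 12 weeks of age. Fed mice had free access to chow, and fasting mice had no food for 24 h. Tissue of 3 mice per state was pooled, and each pool gave 1 library, so no tissue and state had replicates and all tissues of a state came from the same mice. The samples were whole tissues with all their cell types, so a region open in more cells and a region more open in each cell could not be told apart. The white adipose depot is not given in the sources used here.

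ATAC-seq marks DNA that is free enough of nucleosomes for the Tn5 transposase to insert adapters. Enhancers usually open over a short stretch between 2 flanking nucleosomes, whereas promoters rich in CG dinucleotides (CpG islands) can stay open over several nucleosome lengths. Long stretches of open or acetylated chromatin are also known at genes that define a cell type, and they are then often called super-enhancers or broad domains.

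The following sequences show 201 bp centred on the strongest summit of 7 broad regions, with every CG in capitals. They were taken from the plus strand of GRCm38 and overlap no annotated exon. Scaf11, an SR-related splicing factor, at chr15:96460868-96461068, and Fbxl17, an F-box subunit of an E3 ubiquitin ligase, at chr17:63500431-63500631, are shown because these promoters were broad in all 16 libraries.
Scaf11: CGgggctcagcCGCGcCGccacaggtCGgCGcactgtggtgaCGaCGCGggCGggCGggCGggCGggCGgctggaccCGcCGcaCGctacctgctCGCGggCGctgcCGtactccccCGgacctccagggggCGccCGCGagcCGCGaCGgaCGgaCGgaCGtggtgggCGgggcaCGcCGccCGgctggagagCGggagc
Fbxl17: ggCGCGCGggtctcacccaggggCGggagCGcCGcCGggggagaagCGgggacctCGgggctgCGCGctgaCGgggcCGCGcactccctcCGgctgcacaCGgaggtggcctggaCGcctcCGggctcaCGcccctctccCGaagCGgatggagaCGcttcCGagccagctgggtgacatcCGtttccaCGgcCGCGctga
Their windows hold 36 and 27 CG dinucleotides. The next 4 windows come from regions that were broad in both states of 1 tissue and in no other tissue. They lie in an intron of the liver protease inhibitor gene Serpina3m (chr12:104346315-104346515), between genes near the cardiac troponin gene Tnnt2 (chr1:135855312-135855512), near the club cell secretory protein gene Scgb1a1 in lung (chr19:9082580-9082780) and near Ccdc12 in kidney (chr9:110720130-110720330).
Serpina3m: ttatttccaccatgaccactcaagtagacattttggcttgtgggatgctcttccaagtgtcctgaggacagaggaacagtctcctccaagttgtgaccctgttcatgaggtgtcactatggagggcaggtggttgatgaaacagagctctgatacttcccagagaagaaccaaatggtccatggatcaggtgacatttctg
Tnnt2: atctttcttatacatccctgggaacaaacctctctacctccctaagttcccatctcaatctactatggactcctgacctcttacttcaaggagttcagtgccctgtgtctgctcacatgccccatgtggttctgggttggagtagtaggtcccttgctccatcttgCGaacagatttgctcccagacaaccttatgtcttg
Scgb1a1: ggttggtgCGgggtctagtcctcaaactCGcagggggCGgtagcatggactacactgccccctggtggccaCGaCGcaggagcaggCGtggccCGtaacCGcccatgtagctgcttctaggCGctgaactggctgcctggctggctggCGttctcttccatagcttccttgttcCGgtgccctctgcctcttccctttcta
Ccdc12: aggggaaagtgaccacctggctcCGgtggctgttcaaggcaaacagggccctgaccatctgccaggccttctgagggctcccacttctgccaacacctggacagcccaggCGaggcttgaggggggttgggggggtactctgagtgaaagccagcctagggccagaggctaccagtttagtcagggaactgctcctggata
These windows hold 0, 1, 11 and 2 CG dinucleotides. The last window (chr6:5482478-5482678) lies beyond the 3′ end of Pdk4, which encodes the kinase that shuts down pyruvate dehydrogenase, and is shown because the fullest region there had 13 summits more in fasting than in fed heart, the largest gain of its kind in any tissue.
Pdk4: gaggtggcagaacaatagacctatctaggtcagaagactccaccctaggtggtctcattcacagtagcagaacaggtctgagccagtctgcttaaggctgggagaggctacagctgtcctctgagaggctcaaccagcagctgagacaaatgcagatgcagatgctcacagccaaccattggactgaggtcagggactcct
It holds 0 CG dinucleotides.

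The number of broad regions differed widely between libraries. Liver had 486 in the fed and 1339 in the fasting library, which were 0.203% and 0.615% of the regions listed there. Spleen had 1903 (0.821%) and 2400 (1.06%), heart 3709 (1.8%) and 3884 (1.89%), and muscle 3837 (2.1%) and 4310 (2.52%). Kidney had 5097 (3.08%) and 4979 (2.95%), and lung 6800 (4.24%) and 6927 (4.4%). White adipose had 5771 (3.68%) and 4136 (2.32%), and brown adipose 7217 (4.82%) and 3424 (1.8%). Liver was thus low in both states, lung was high in both, and brown adipose was high only in the fed library. Each list was cut to nearly the same number of rows, 298996 to 299529, so its p limit differed. The lowest -log10 p listed ran from 2.48 in fasting to 7.11 in fed brown adipose. With rows nearly fixed, lists with more summits per region hold fewer regions. Summits per region and the number of broad regions had a Pearson r of 0.94 over the 16 libraries. The part of this cut in the differences between tissues was not tested.

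Depth moved with these numbers. The genome background, the tags expected at a summit from the whole library, is proportional to depth and was 12.8 tags in the fed and 6.76 in the fasting library of brown adipose, 10.02 and 5.87 for white adipose, 8.92 and 7.14 for lung, and 6.39 and 10.6 for muscle. The pairs were 4.92 and 5.84 tags for heart, 4.67 and 4.64 for kidney, 3.20 and 3.35 for spleen, and 2.80 and 2.82 for liver. Over the 16 libraries, which share animals and tissues, the number of broad regions and the background had a Pearson r of 0.77 and a Spearman rho of 0.77. When tags at every summit were scaled down to the shallowest library, the numbers ranged from 368 in fed liver to 4457 in fed brown adipose, with 4233 in fed kidney and 4036 in fasting lung. Spleen then had 1557 and 2005, and fasting spleen lay above both muscle libraries (1948 and 1887), both heart libraries (1660 and 1401), fasting white adipose (1669) and fasting brown adipose (1233). The part of depth in the remaining differences was not tested.

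**Figure D1:**
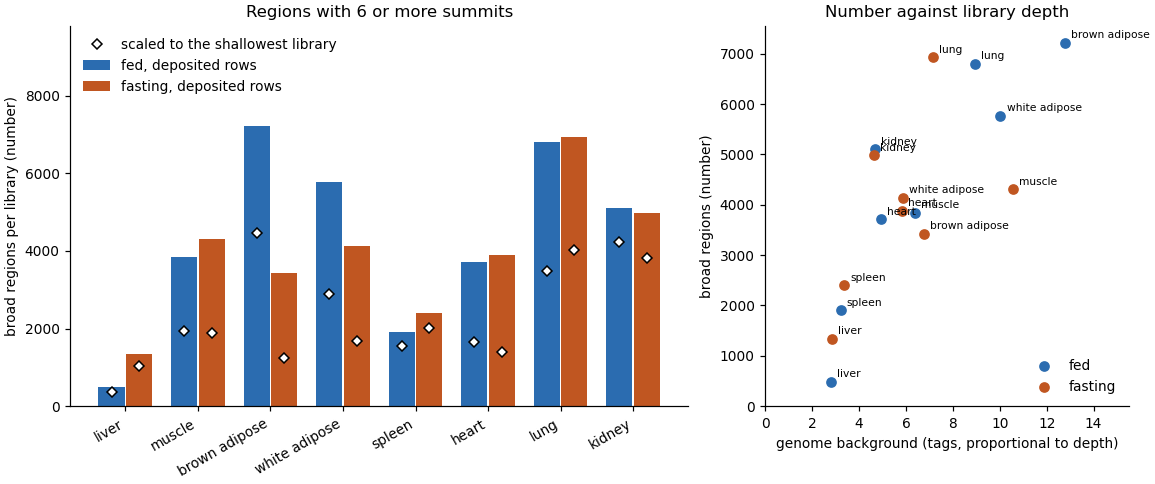
Number of broad regions (6 or more summits) per library, with fed in blue and fasting in orange. Left, bars give the deposited rows and diamonds the number after scaling every library to the shallowest one; right, the number against genome background in tags. Fed liver is lowest at 486 and fed brown adipose highest at 7217, which is also the deepest library.

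Between the states, the number of broad regions was not shown to differ. On the log2 scale the fasting number over the fed number averaged 0.06 (SD 0.72, n = 8 tissues, 5 positive), with a two-sided exact sign-flip permutation p of 0.781 (0.781 after Benjamini-Hochberg adjustment over 5 tests). The ratio was 1.46 in liver and -1.08 in brown adipose, and ranged from -0.48 to 0.33 in the other tissues. The background changed by 0.01 (log2) in liver and by -0.92 in brown adipose. With equal depth the ratio was 1.49 in liver and -1.85 in brown adipose.

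Broad regions had a median width between 1058.5 bp (fed liver) and 1288 bp (fed lung), with extremes of 546 and 3395 bp. Other regions had median widths between 119 and 275 bp. The mean spacing of summits within a broad region had a median of 163 to 180 bp per library. This is about the length of DNA in a nucleosome with its linker, but a link was not tested. Most broad regions had only 6 or 7 summits, while 3039 had 10 or more and the highest number was 20, in fasting white adipose. The regions took up 1.06% to 17.0% of the rows of a list and ranked high in it, with a median percentile by p between 95.1 and 97.6. Their strongest summit had a median fold over background of 6.60 to 11.5, against 2.58 to 4.41 at other regions.

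Most broad regions were promoters, here regions whose strongest summit lay within 3000 bp of an annotated transcript start. The share was 95.2% of the fed and 95.1% of the fasting regions in spleen, 91.8% and 91.0% in heart, 86.8% and 85.4% in liver, and 85.7% and 84.4% in kidney. White adipose had 84.0% and 82.9%, lung 83.9% and 81.6%, muscle 81.4% and 76.9%, and brown adipose 77.5% and 80.7%. Among other regions the share was 29.3% to 33.7%. The difference averaged 53.1 percentage points (SD 6.53, n = 8 tissues, higher in 8 of 8; two-sided exact sign-flip permutation p = 0.0078, the smallest it can give, adjusted 0.013). Against regions with exactly 5 summits it was 11.9 points. The share was lower in deeper libraries over all 16 (Pearson r -0.71, Spearman rho -0.78), and the part of depth in the differences between tissues was not tested.

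The number of summits went with position and base composition step by step. The median promoter share over libraries was 29.5% for regions with 1 summit, 39.8% with 3, 70.4% with 5, 79.9% with 6 and 92.8% with 10 or more. The mean number of CG dinucleotides within 100 bp of the strongest summit was 3.35 with 1 summit, 13.3 with 5, 15.97 with 6 and 19.1 with 10 or more. In fed liver the 13 regions with 10 or more summits stood apart, with a promoter share of 46.2% and 4.85 CG dinucleotides.

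**Figure D2:**
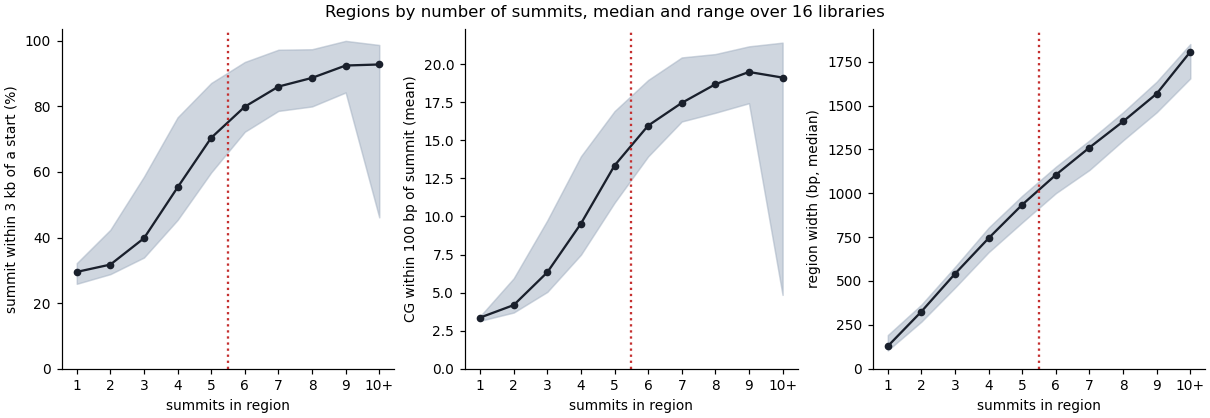
Promoter share (%), mean number of CG dinucleotides and median width (bp) of regions with 1 to 9 and with 10 or more summits. Lines give the median and shading the range over the 16 libraries, and the dotted line marks the threshold of 6; the median promoter share goes from 29.5% at 1 summit to 92.8% at 10 or more.

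Per library, broad regions held 15.62 to 19.5 CG dinucleotides in the 201 bp window and other regions 3.86 to 4.25. The difference averaged 13.3 (SD 1.33, n = 8 tissues, higher in 8 of 8; two-sided exact sign-flip permutation p = 0.0078, adjusted 0.013). Promoters alone showed it too, with 18.9 to 20.5 in broad and 6.46 to 7.70 in other promoter regions. Broad regions away from starts were poorer in CG, at 4.35 to 7.85, and other regions away from starts had 2.26 to 2.97. The promoter windows of Scaf11 and Fbxl17 above, with 36 and 27, are of the first kind, and those of Serpina3m, Tnnt2 and Ccdc12 of the second.

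Broad promoter regions reached across the start to both sides. Per library 87.9% to 95.3% of them covered the start of a protein-coding gene, against 18.4% to 24.3% of other promoter regions. From the covered start nearest to the strongest summit, regions extended a median of 552 bp upstream and 680 bp downstream (medians over libraries), and 52.7% to 64.3% reached further into the gene than upstream. Other promoter regions that covered a start extended 264 bp upstream and 313.5 bp downstream. Of these, 45.4% to 59.4% reached further into the gene. Starts of genes on opposite strands were covered by 11.1% to 16.5% of broad promoters and 0.889% to 1.37% of other promoter regions. A wider region covers more sequence, so these shares follow in part from the rule.

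Merging the broad regions of all libraries gave 16836 loci over 21.4 Mb. Loci whose strongest summit lay within 3000 bp of a protein-coding start were nearest to 9057 genes. Of the 16836 loci 67 were broad in all 16 libraries, 551 in at least 1 state of all 8 tissues, 7987 in 1 tissue and 6684 in 1 library. From here on, the number of summits of a locus or gene is that of its fullest listed region. This number drops where a library lists several shorter regions in place of 1. For most named loci that changed the total over all listed regions is therefore given too, but it was not counted for genes of the lists. Those with most libraries and summits included Scaf11 (7 to 13 summits) and the splicing factor gene Luc7l2 (7 to 11). They also included Nfe2l2 (7 to 13), the oxidative stress factor NRF2, Gsk3b (7 to 12), a kinase of insulin and Wnt signalling, and the chromatin reader gene Zmynd11 (6 to 11). Others were Fbxl17 (6 to 12), the ubiquitin ligase gene Rnf139 (7 to 10), 1700064H15Rik (7 to 10) and a locus in Mid1 on chromosome X (7 to 12), 11728 bp from the nearest coding start.

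Promoter share was higher the more tissues a locus was broad in. It was 43.0% (95% exact binomial interval 41.9 to 44.1) for loci broad in 1 tissue, 66.8% in 2, 88.5% in 4, 95.4% in 6 and 98.5% (97.2 to 99.4) in all 8. The mean number of CG dinucleotides went from 6.70 to 21.1 and the median width of the merged locus from 1057 to 1645 bp. A locus broad in more libraries merges more regions, so its width follows in part from the merging. Its strongest summit was also chosen among more libraries. Of the loci broad in 1 tissue, 32.3% had a listed region in all 16 libraries, against 65.4% of those broad in 2 tissues and 100% of those broad in 8. The intervals cover counting error only.

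Sharing followed the tissue. Overlap was measured by the Jaccard index (bp in both sets over bp in either), which between the broad regions of the fed and fasting libraries of a tissue came to 0.537 in lung, 0.521 in kidney, 0.441 in muscle, 0.426 in heart, 0.411 in spleen, 0.388 in white adipose, 0.319 in brown adipose and 0.160 in liver. The mean of 0.400 (SD 0.120, n = 8) was the highest of all 40320 pairings of fed with fasting libraries, whose mean was 0.273 (one-sided exact permutation p = 2.48e-05, the smallest it can give, adjusted 1.24e-04). Libraries of different tissues had a mean index of 0.257 (SD 0.103, n = 112). The nearest library was the other state of the same tissue in 12 of 16 cases. Fed brown and fed white adipose were nearest to each other, fasting brown adipose was nearest to fasting white adipose, and fasting liver to fed heart.

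**Figure D3:**
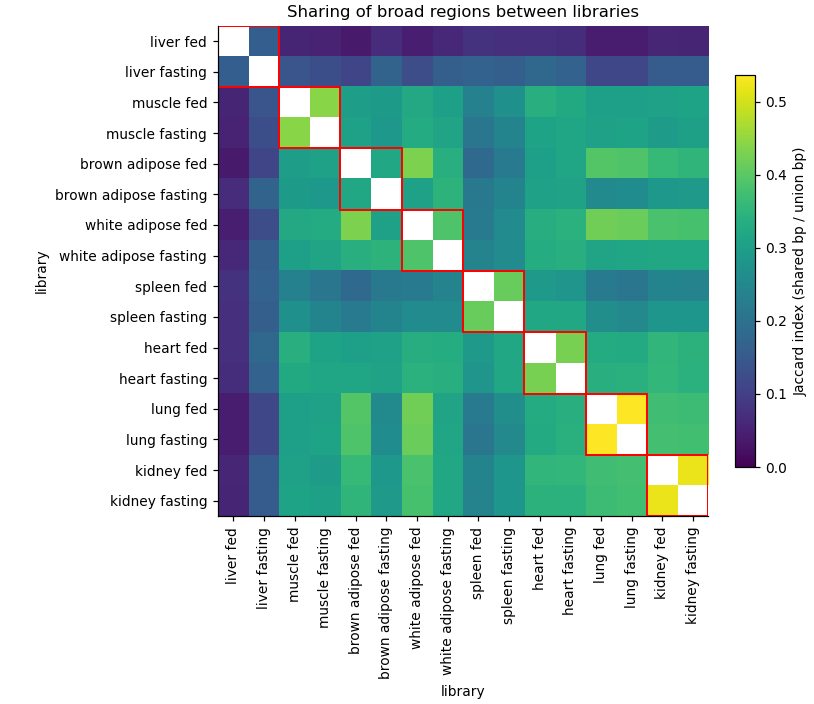
Jaccard index (bp in both over bp in either set) of broad regions between every pair of the 16 libraries, with red frames around the 2 states of a tissue and the diagonal left blank. The framed values run from 0.160 in liver to 0.537 in lung, and both liver libraries are dark against all others.

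Between tissues the index was highest for lung with kidney (0.372, mean of 4 library pairs), white adipose with lung (0.366) and brown with white adipose (0.356). Brown and white adipose had 367 loci broad in no other tissue, the most of any pair. Lung had 265 such loci with brown adipose, 237 with kidney and 207 with white adipose. Muscle and heart, both striated muscle, had an index of 0.322 and 69 loci of their own. All pairs with liver had an index of 0.0777 to 0.123, and liver had the fewest broad regions. The index falls when 2 lists differ in size, and with the share of the smaller list in place of the index the same-tissue mean was 0.668 (one-sided exact permutation p = 0.0407).

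Private loci were broad in both states of 1 tissue and in no library of another. There were 452 in lung, 304 in kidney, 227 in muscle, 183 in brown and 73 in white adipose, 34 in heart, 16 in spleen and 14 in liver. Only 28.6% to 73.5% of them were promoters, against 95.2% to 98.9% of the stable loci broad in 5 or more tissues, and they held 2.71 (liver) to 13.97 (heart) CG dinucleotides, against more than 20 in every tissue. All but 33 of the 1303 overlapped a listed region of another tissue, which by the rule had at most 5 summits.

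The private liver locus with most summits lay 42981 bp from the nearest coding start, that of the ubiquitin ligase gene Nedd4l on chromosome 18, and had 17 summits in fed and 15 in fasting liver. An intergenic locus (chr16:22898462-22901152) 5166 bp from the start of Ahsg, which encodes fetuin-A, had 13 and 14 in liver, 1 in fed muscle and 0 elsewhere. The Serpina3m locus (chr12:104345697-104347897), in a cluster of similar genes among which the placement of reads was not checked, had 15 and 13 in liver and 0 in the other 14 libraries.

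In muscle, a locus (chr6:42316331-42318975) over Fam131b and 4821 bp from Clcn1, the chloride channel of muscle membranes, had 17 summits in the fed and 7 in the fasting library (17 and 11 over all listed regions) and at most 1 in others. Phkg1, the catalytic subunit of muscle phosphorylase kinase, had 12 and 10, and the myotonic dystrophy kinase gene Dmpk 11 and 10. Both had between 1 and 5 summits in the fullest region of every other tissue, and up to 9 over all regions. In heart, the locus near Tnnt2 had 13 and 6 summits (13 and 10 over all regions) and was not listed in 12 other libraries. Loci 36900 bp from Csnk2a1 and 40884 bp from Adm, which encodes the vasodilator adrenomedullin, each had 8 and 7.

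In brown adipose, a locus in an intron of Tcf4 had 10 and 9 summits, and one 35490 bp from Xpnpep1 12 and 6 (12 and 11 over all regions). Over all regions other tissues had up to 8 at the Tcf4 locus (fasting white adipose) and up to 7 at the Xpnpep1 locus. In white adipose, the widest broad region of any library (chr10:79895100-79898494) lay over Med16, a Mediator subunit gene, with 14 summits in fed and 20 in fasting (17 and 20 over all regions). It had at most 5 summits elsewhere. Loci near the kinase genes Pkn2 and Mapk6 had 9 and 9, and 8 and 10. Over all regions other tissues had up to 8 at the Pkn2 locus (fasting muscle) and up to 5 at the Mapk6 locus.

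In lung, the locus near Scgb1a1 (chr19:9081385-9083862) had 14 and 15 summits in 1 region. In the other libraries the fullest region had 1 to 4, and all regions together 1 to 8, with 7 and 8 in white adipose and 6 in each library of muscle and brown adipose. A central summit was listed in all 16 libraries, with a fold of 28.6 in fed spleen and 25.3 in fed kidney against 8.12 in fed lung, while the flanking summits spread furthest in lung. Fold is not scaled between libraries, and by percentile rank within the list lung (95.8 and 96.0) lay below fed spleen (99.7) but above both muscle libraries (93.9 and 93.4). Prr18 had 13 and 8 summits in lung, and an intron of Tnni1, the slow skeletal troponin gene, 11 and 9. In kidney, an intergenic locus 10186 bp from Ccdc12 had 11 and 13 summits and at most 1 elsewhere, a locus over Rgs9bp and Ankrd27 11 and 11 (5 to 10 over all regions in other tissues), and a locus near Wsb1 9 and 10. In spleen, private loci had few summits, with 9 and 8 at Rcn3, 7 and 7 near Ceacam2, and 7 and 7 at Rgs10, a regulator of G-protein signalling in immune cells. Over all regions Rcn3 had 10 and 9 in spleen and 7 and 7 in lung. By the same sum Rgs10 had 7 and 7 in spleen and also 7 in fasting white adipose. The Ceacam2 locus had at most 4 outside spleen.

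Lists of tissue genes were then counted, a gene being counted when a broad region of either state overlapped its body or 3000 bp around it. The liver list had 6 of 16 genes in liver, where 8.28% of all protein-coding genes were counted, and the muscle list 12 of 16 in muscle (23.8% of all genes). The brown adipose list had 10 of 16 (33.2%), the white adipose list 9 of 16 (31.4%), the heart list 7 of 16 (26.5%) and the lung list 11 of 16 (37.9%). The kidney list had 5 of 16 (30.3%), near the background, and the spleen list 0 of 16 (16.5%). Each list except that of spleen had its highest count in its own tissue.

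In liver the counted genes included Alb, which encodes albumin, with 10 and 11 summits in fed and fasting liver and at most 3 elsewhere. Apoa1, the main protein of high-density lipoprotein, had 9 and 10. In muscle, Ryr1, the calcium release channel, had 10 and 8 summits, Myog, a myogenic regulator, 7 and 7, and Actn3, an actinin of fast fibres, 11 and 6. The myosin genes of fast fibres were broad in 1 state each, Myh4 with 7 and 3 and Myh1 with 3 and 6. Mylpf, although a fast muscle light chain, had 6 to 11 summits in all 16 libraries, counting any promoter of a neighbour within the 3000 bp, and so did not mark muscle.

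In heart, Ttn, the giant sarcomere protein, had 8 and 6 summits and also 9 and 13 in muscle, while Myl2, the ventricular light chain, had 7 and 6 and at most 2 in other tissues. In brown adipose, Ebf2, a factor of brown fat identity, had 9 and 6, and it had 6 in fed white adipose too. Ppara, the fatty acid receptor, had 11 and 10 in brown adipose but was broad in 9 libraries. It had 8 and 6 in lung, 7 and 9 in kidney, and 8, 7 and 6 in fasting heart, liver and white adipose. Lipe, which encodes hormone-sensitive lipase, had 13 and 6 in brown and 14 and 14 in white adipose, but also 7 to 10 in heart, lung and kidney. Fabp4, the fatty acid carrier of adipocytes, had 5 and 9 in white adipose.

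In lung, Foxf1, a mesenchymal factor, had 10 and 9 summits, and Sftpb, surfactant protein B, 9 and 8. In kidney, Slc34a1, the phosphate transporter of the proximal tubule, had 9 and 10 and Pax2, a nephron factor, 7 and 9. Genes of the spleen list had between 0 and 5 summits in spleen, with 5 and 5 at Cd74, the invariant chain, and at Cxcr5, a receptor of follicular B cells, and 4 and 4 at Ikzf1. The labelled spleen is therefore not marked by broad regions at these genes. In white adipose, 4 of 16 genes of the spleen list were counted, Ikzf1, Ebf1, Cd37 and Cxcr5. This share of 25% is below the 31.4% of all protein-coding genes counted there.

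Lists of cells that a tissue sample may also hold were counted in the same way. The epididymis list had at most 1 of 16 genes in any tissue, in brown (33.2% of all genes) and in white adipose (31.4%). The erythroid and lymphocyte lists had at most 3 of 12 and the endothelial list at most 4 of 12, all in lung, where 37.9% of all genes were counted. A list of ribosomal and housekeeping genes had 4 of 16 in liver (8.28% of all genes), 6 in spleen (16.5%) and 9 to 13 in the other tissues (23.8% to 37.9%). A list of 26 developmental factors, mostly Hox genes, had 10 in muscle (23.8% of all genes), 10 in brown (33.2%) and 9 in white adipose (31.4%). It had 5 in kidney (30.3%), 1 in lung (37.9%) and 0 in liver, spleen and heart (8.28%, 16.5% and 26.5%). Hoxd8 was broad in 8 libraries, with 7 to 9 summits in muscle and both adipose tissues and 11 and 10 in kidney.

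In both liver and both spleen libraries 1 locus (chr1:24613150-24616172) had the most summits, in fed liver together with the Nedd4l locus. It lies over unprocessed pseudogenes including Gm28437, and its 3023 bp were identical (100% over 3023 bp) to mitochondrial DNA. There were 17 and 17 summits in liver and 18 and 17 in spleen, and the locus was not listed in the other 12 libraries. Reads of mitochondrial DNA and of this locus could not be told apart by sequence. Another copy near Myo3a on chromosome 2, with 98.4% identity over 1057 bp, had 5 or 6 summits in every library. No other broad locus matched mitochondrial DNA over 200 bp.

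The regions with most summits in the other libraries often stood at loci that other libraries listed in several pieces. Arid1b, a subunit of a SWI/SNF remodelling complex, had 18 and 15 summits in fed and fasting muscle, 16 and 14 in lung and 3 and 5 in liver, but 13 and 16 in liver over all listed regions. Tfap4, a helix-loop-helix factor, had 15 in fed brown adipose and 18 in fed lung. Ncoa2, a coactivator of nuclear receptors, had 16 and 16 in lung, 15 and 8 in heart, and 4 and 12 in liver, with 15 and 12 in heart and 11 and 12 in liver over all regions. Tsc22d2 had 6 and 15 in fed and fasting heart (15 and 17 over all regions), and the kinase gene Cdk13 17 and 9 in kidney (17 and 14). Ppp2r3d, which encodes a phosphatase subunit, had 9 and 16 in kidney (20 and 19 over all regions). In fasting brown adipose the highest number was 17, against 8 in the fed library (17 and 11 over all regions), at an intergenic locus 4501 bp from Glul, which encodes glutamine synthetase. In fed white adipose it was 15, against 8 in fasting (15 and 13 over all regions), 7032 bp from the glucocorticoid-induced factor gene Klf9.

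A locus of a tissue was called stable when broad regions of both its states overlapped by at least 1 bp. Stable were 4783 of 8937 loci in lung (53.5%), 3455 of 6618 in kidney (52.2%), 2476 of 5671 in muscle (43.7%) and 2296 of 5295 in heart (43.4%). Spleen had 1252 stable of 3051 (41.0%), white adipose 2854 of 7049 (40.5%), brown adipose 2737 of 7904 (34.6%) and liver 261 of 1564 (16.7%). The share cannot be high where the states differ in number, as in liver and brown adipose. Of the regions of the smaller library, 53.7% were stable in fed liver and 79.9% in fasting brown adipose.

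Regions of stable loci, with both states counted together, were more often promoters than regions broad in 1 state. The shares were 84.8% to 98.2% against 67.4% to 90.9% over tissues. Regions of stable loci were also wider, with medians of 1109.5 to 1334 bp against 1046 to 1175 bp. They held more summits, with means of 6.90 to 7.37 against 6.38 to 6.66, and promoter share and width went with that number. Regions broad in 1 state were rarely absent in the other. In the other state 54.4% (liver) to 85.8% (kidney) of them had 4 or 5 summits, 14.1% to 45.4% had 1 to 3, and 0% to 2.34% had no listed region. Among loci broad in either state, 52.0% in liver and 63.7% in brown adipose differed by at most 2 summits between the states, against 72.0% to 85.3% in the other tissues. With summits summed over all listed regions the share was 80.2% to 93.8%.

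In its fullest region, the fasting library had at least 6 summits more than the fed one at 63 loci in muscle, 41 in liver, 32 in heart, 26 in lung, 22 in white adipose, 19 in spleen, 16 in kidney and 11 in brown adipose. It had at least 6 fewer at 230 loci in brown and 207 in white adipose, 36 in lung, 23 in heart, 17 in muscle and 11 in kidney, with 3 in liver and 2 in spleen. Such changes were fewer when the summits of all listed regions at a locus were added up, with 77 gains in place of 230 over all tissues and 177 losses in place of 529. By that sum there were 22 gains and 5 losses in muscle, 14 and 1 in liver, 2 and 2 in heart, 14 and 124 in white adipose and 9 and 30 in brown adipose. In both adipose tissues the fasting library was the shallower (6.76 against 12.8 background tags in brown and 5.87 against 10.02 in white), and in muscle it was the deeper (10.6 against 6.39). The part of depth in these changes was not tested. The loci named next were chosen for their change, which is therefore a description of single libraries.

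The largest gain was at Pdk4, where heart had 1 summit in the fed and 14 in the fasting library (chr6:5480777-5483001). Over all listed regions the locus had 0 and 9 summits in fed and fasting kidney, 0 and 10 in white adipose, 12 and 14 in muscle and 11 and 14 in brown adipose, against 7 and 14 in muscle and 8 and 11 in brown adipose in the fullest region. It had 0 and 1 in liver and was not listed in spleen or lung. The fasting library was thus the higher in all 6 tissues where the locus was listed, and in fasting heart its summits spread from -1047 to 1054 bp around the centre with folds between 1.75 and 4.77. The window printed above lies at its strongest summit.

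**Figure D4:**
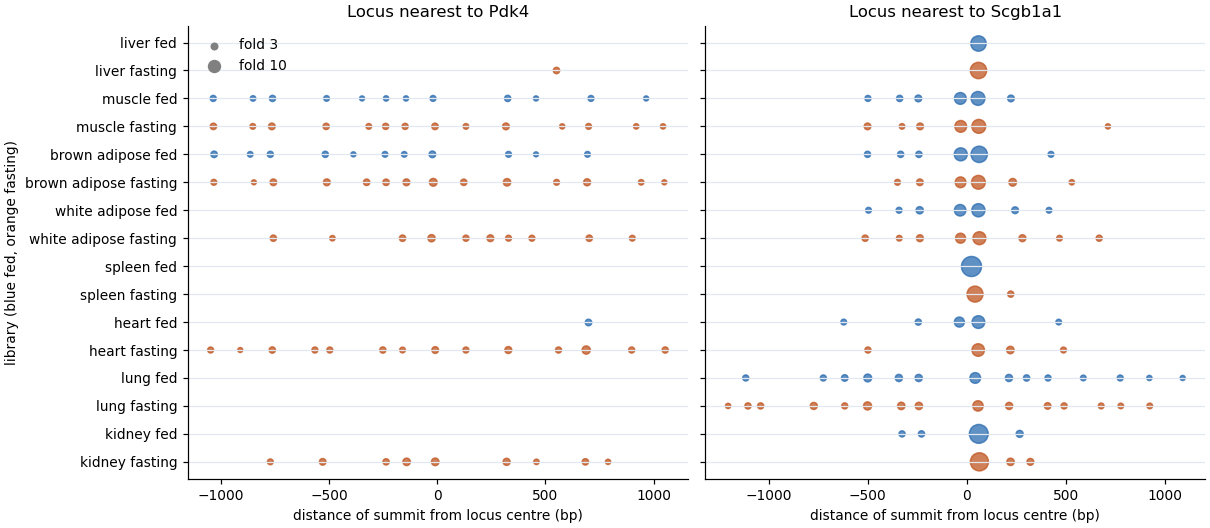
Position of every listed summit in the loci nearest to Pdk4 (left) and Scgb1a1 (right), in bp from the locus centre, with 1 line per library and dot area proportional to fold over background. In heart the Pdk4 locus has 1 summit in the fed and 14 in the fasting library, and the central Scgb1a1 summit is listed in all 16 libraries with flanking summits spread furthest in lung.

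In liver the largest gain was at Cyp4a32, from 2 to 13 summits (4 to 13 over all regions), and in kidney at a locus just beyond the 3′ end of Cyp4a10, from 0 to 10. The second locus also went from 1 to 10 in liver. Both genes encode fatty acid omega-hydroxylases and are known targets of PPARA, and they belong to a cluster of near-identical genes among which the placement of reads was not checked. In brown adipose an intronic locus of Rassf4, 3544 bp from the fasting-induced gene Depp1, went from 2 to 11 (4 to 11 over all regions), and in muscle from 2 to 10 (2 to 15). The largest gains in the remaining tissues were small or absent in the sum over all regions. In lung, Plin3, a lipid droplet coat protein gene, had 3 and 12 summits in the fullest region but 10 and 12 in all. In spleen the immediate early gene Ier5 had 3 and 11 but 8 and 11 in all, and in muscle Tfap4 had 5 and 15 but 15 and 15 in all. In white adipose Rreb1 had 5 and 13 in the fullest region and turned to 14 and 13 in all.

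The largest losses with fasting lay over an annotated transcript start in 4 tissues. Basp1 went from 14 to 3 summits in white adipose (14 to 7 over all regions) and the SWI/SNF subunit gene Arid1a from 12 to 3 in brown adipose (13 to 8). Spred2, an inhibitor of MAP kinase signalling, went from 16 to 6 in lung (16 to 13 over all regions), and Ccdc6 from 10 to 4 in spleen (10 to 7). In heart the loss was at a locus 2243 bp from Cmtm5 and within 3000 bp of Myh6, the cardiac myosin heavy chain, from 13 to 4 (13 to 9 over all regions). In muscle it was at the locus near Clcn1 described above, and in kidney 38102 bp from 1700001O22Rik, from 12 to 3 (12 to 10). In liver a locus 13698 bp from Serpina5 had 10 summits in the fed library and was not listed in the fasting one.

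**Figure D5:**
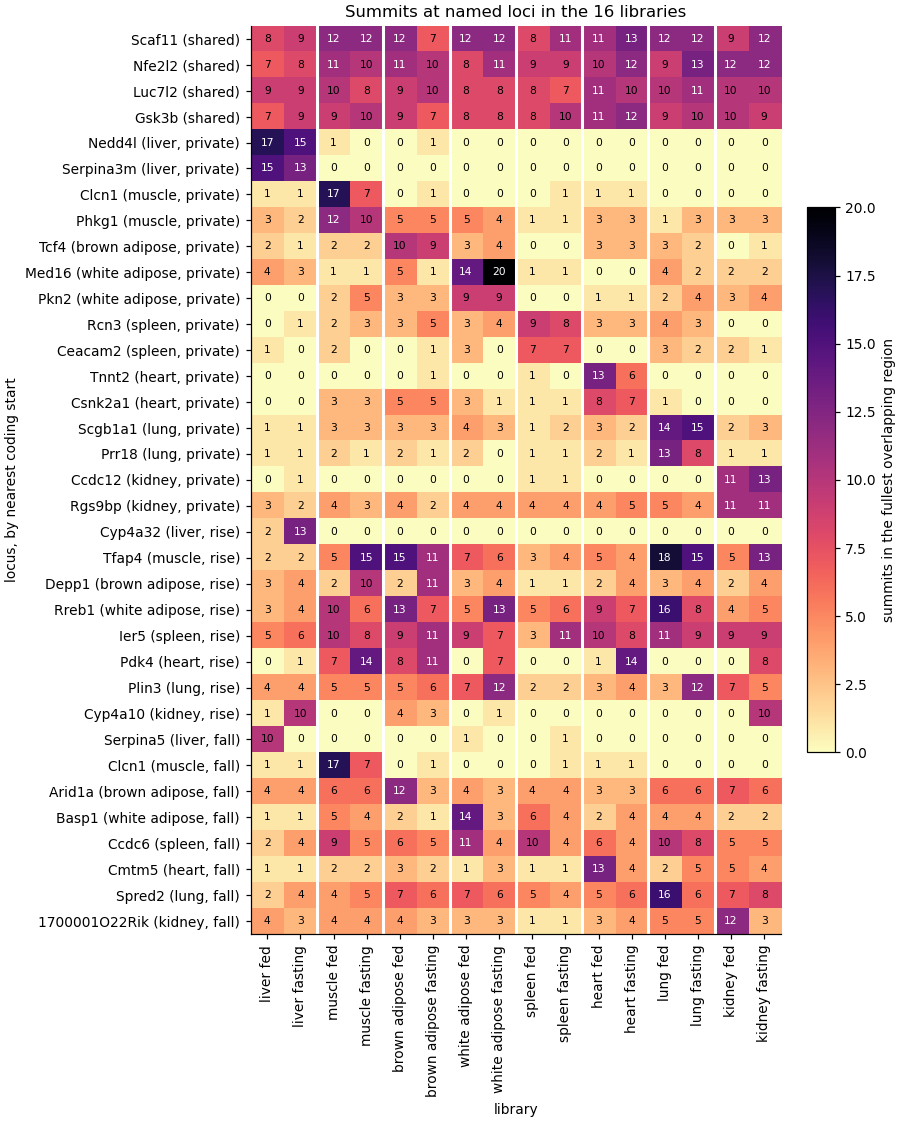
Number of summits in the fullest listed region at each named locus (rows, by nearest coding start) in the 16 libraries (columns), from 0 in pale yellow to 20 in black. Scaf11 and the other shared loci hold 6 or more in every library, private loci are dark in 1 tissue, and Pdk4 is higher in the fasting than in the fed library in 6 tissues.

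Some loci changed in the same direction in several tissues. Of all 16836 loci, 425 were broad only in the fasting library of 3 or more tissues and 958 only in the fed library of 3 or more. These tissues share their animals. Per tissue, a mean of 1837.5 loci were broad only when fed and 1409.38 only with fasting. Brown adipose had 4480 and 687 and white adipose 2917 and 1278, with the fed library the deeper in both. Kidney also had more when fed, and the other tissues had more with fasting. The part of depth in these counts was not tested. The promoter of Zfp655 was broad only with fasting in 6 tissues, with 3 to 9 summits over all libraries. Fkbp5, a glucocorticoid-induced cochaperone, went from 4 to 7 in liver, 5 to 8 in muscle, 6 to 8 in lung, 5 to 7 in heart and 5 to 6 in both adipose tissues, while kidney had 7 and 7 and spleen 7 and 6. Over all regions Fkbp5 went from 5 to 8 in liver, 6 to 9 in muscle and lung, and 6 to 8 in brown adipose. Heart and white adipose had 7 and 9, kidney 7 and 8, and spleen 8 and 7. Fitm2, which acts in lipid droplet formation, had 5 in the fed and 6 to 8 in the fasting libraries of liver, muscle, heart, lung and kidney, but 5 and 3 in spleen. Over all regions Fitm2 had 6 and 6 in muscle, so that gain was absent, and 5 and 7 in heart. Its numbers in liver, lung, kidney and spleen stayed the same. Ccdc6, Wbp1 and the pyrophosphate transporter gene Ank recurred in the fed state. Ank had 7 and 4 summits in liver and 6 and 4 in kidney. Ccdc6 had 11 and 4 in white adipose (11 and 10 over all regions), 9 and 5 in muscle (10 and 9), and 6 and 4 in heart (11 and 8), but 2 and 4 in liver.

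Genes known to be induced by fasting were then counted by state. For the list of 20, 24 gene and tissue pairs were broad only with fasting and 14 only when fed, so 63.2% of the changes were toward fasting. For the list of 20 genes known to fall with fasting the counts were 11 and 24 (31.4%). For all 21924 protein-coding genes they were 9408 and 12677 (42.6%). Among other lists, spleen genes gave 2 and 5 (28.6%) and developmental factors 9 and 16 (36%). Immediate early genes gave 16 and 19 (45.7%), and ribosomal and housekeeping genes 14 and 16 (46.7%). The share of the falling list lay within this range, and whether it reflects fasting was not tested. The falling list gave 1 and 6 in brown and 2 and 6 in white adipose, where the fed library was the deeper. In liver 5 genes of the induced list were broad only with fasting and 0 only when fed, where all genes gave 1238 and 250. The list gave 4 and 0 in muscle (1340 and 1064 of all genes), 4 and 2 in heart (1575 and 1405), 4 and 2 in kidney (1164 and 1393) and 1 and 0 in spleen (1302 and 721). In brown adipose it gave 2 and 5 (423 and 3762), in lung 1 and 2 (1395 and 1538), and in white adipose 3 and 3 (971 and 2544).

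In liver, Igfbp1, an insulin-repressed binding protein, went from 3 to 11 summits, and Cpt1a, the carnitine transferase of mitochondrial fat import, from 4 to 6. Pck1, which starts gluconeogenesis, had 8 and 8 in liver, 10 and 10 in brown adipose and 7 and 7 in kidney, and so was stable. Irs2, an adaptor of the insulin receptor, went from 9 to 14 in muscle and 4 to 10 in heart, and Fbxo32, the atrophy ubiquitin ligase atrogin-1, from 5 to 9 in muscle and 6 to 8 in heart. Trim63, its partner MuRF1, had 10 and 12 in muscle and 9 and 7 in heart.

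Among genes known to fall, Sqle of cholesterol synthesis was broad only in the fed library of 5 tissues, with 6 and 5 summits in liver and 8 and 5 in kidney. Lep, which encodes leptin, had 7 and 4 in brown and 7 and 3 in white adipose and at most 1 elsewhere. Mlxipl, the carbohydrate response factor ChREBP, had 11 and 8 in muscle and 7 and 4 in brown adipose. Fasn went the other way in spleen (6 to 9) and kidney (6 to 10), and Insig1, an inhibitor of SREBP processing, had 5 or more summits in every library. Immediate early genes had 10 of 16 broad in fed and 3 in fasting brown adipose, and 11 and 10 in lung, against 0 and 2 in liver. Over all genes the shares were 31.3% and 16.1% in brown adipose, 31.6% and 30.9% in lung, and 2.64% and 7.14% in liver.

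The promoter share itself was not shown to differ between the states. It was lower with fasting in 7 of 8 tissues, by a mean of -1.05 percentage points (SD 2.16, two-sided exact sign-flip permutation p = 0.211, adjusted 0.264). Brown adipose was the exception at 3.18 points. Without it the mean was -1.65 points. All 7 remaining differences were negative, so the exact sign-flip permutation test could only give its smallest p, 0.0156. That p was fixed by leaving out brown adipose, and no conclusion is drawn from it.

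Short motifs were counted within 100 bp of the strongest summit on both strands, as a description. Regions of both states of a tissue were counted together, so a stable region entered from each state. In broad promoters CCGGAAGT, of ETS factors, was found in 4.62% to 6.67% over tissues, against 1.18% to 1.67% of other promoter regions and 0.594% to 0.926% of all regions. GCGCATGCG, of NRF1, was found in 2.68% to 3.79% of broad against 0.441% to 0.599% of other promoters, and in 0.219% to 0.339% of all regions. Both contain CG, in which broad promoters are rich. TGANTCA, of AP-1, was found in 1.37% to 2.91% of broad and 5.26% to 6.76% of other promoters.

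Motifs of tissue factors were counted in broad regions away from starts. CAGCTG, an E-box bound by MYOD, was found in 25.1% of those of muscle (19.1% of other distal regions there). The other tissues had 16.2% to 20.2%, against 14.3% to 16.3% of their other distal regions. A higher share in broad distal regions was thus found in every tissue. GAGGAAGT, of PU.1, was found in 10.1% in spleen (n = 208 regions, against 3.78% of other distal regions there) and 1.13% to 3.89% in other tissues. GTTAATNAT, of HNF1, was found in 4.64% in kidney (2.46% of other distal regions) and 1.54% in liver (0.871%), and in at most 0.49% elsewhere. CAAAGTCCA, of HNF4A, was found in 3.12% in kidney (1.68% of other distal regions) and 3.08% in liver (0.814%). TTGCNNAA, of C/EBP factors, was found in 16.3% in brown (12.7% of other distal regions) and 15.3% in white adipose (13.2%), and in 12.7% in liver (9.64%). TGTTTAC, of FOXA, was found in 7.60% in lung (5.01%) and 6.15% in liver (3.74%). CTAAAAATA, of MEF2, was found in 2.93% in muscle (1.21%) and 1.68% in heart (0.804%), but also in 4 of the 208 regions of spleen (1.92%, against 0.223%).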

How the data were processed

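ATAC-seq peak lists of 16 libraries (8 tissues, fed and fasting, 1 pooled library each) were analysed. Per the methods and labels, the authors aligned trimmed reads to GRCm38 with Bowtie2, dropped unmapped, mitochondrial and duplicate ones, corrected their ends for the Tn5 offset and ran MACS2 on every library alone. They kept at most 300000 rows per list and removed blacklisted regions. Of the deposited rows were used the fold over background, a ratio of tags plus 1 to expected tags plus 1, and the -log10 p of the same library. The deposited -log10 q values of the authors were read but decided nothing. None of them is scaled between libraries.

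Fold and p together gave whole tag numbers (within 0.001) in 98.1% to 100.0% of rows, and the lowest common expected number was taken as background. Starts, genes and exons were those of GENCODE vM21 (132666 starts, 21924 protein-coding genes), whose build and that of the RefSeq genome sequence match the files. Loci carry the name of the nearest protein-coding start. Sets were compared by overlap of at least 1 bp. The 5 tests were exact permutation tests over tissues or pairings, adjusted together by Benjamini-Hochberg. With 1 library per group, p-values speak of these pools only. Binomial intervals are exact (95%).

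The members and the 18 gene lists were chosen with earlier results of these data known. Named are, per tissue, the 3 private stable loci with most summits and the largest rise and fall, the region with most summits per library, the 10 most shared loci, up to 3 recurrent loci per direction and genes of the lists, of which the fasting and spleen genes named were chosen after their values were seen. A few of these loci and genes are not reported here. Scaling to equal depth and summing summits over all listed regions of a locus were added after the data were seen. Scaling kept rows with a scaled -log10 p of at least 5. Mitochondrial copies were sought with BLAST 2.17.0. Other software was pandas 2.3.3, scipy 1.17.1, numpy 2.4.6 and matplotlib 3.10.9 under Python 3.11.15, and the steps were tested on simulated data.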

Additional observations from a re-analysis of the deposited data

Results flagged for a closer look

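The number of broad regions went in opposite directions in liver and brown adipose. The log2 ratio of fasting over fed was 1.46 in liver and -1.08 in brown adipose, each with 1 library per state, and the difference between the tissues was not tested. Background tags were 2.80 and 2.82 in liver and 12.8 and 6.76 in brown adipose, and the ratios at equal depth were 1.49 and -1.85.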

How the results depend on the processing

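The higher promoter share and CG number of broad regions and the sharing within a tissue kept direction and an unadjusted p below 0.05 under all alternatives run. These gave 11.9 to 73.0 points, 3.54 to 15.1 CG and a Jaccard index of 0.281 to 0.462. Leaving out each tissue gave 51.3 to 54.1 points, 13.01 to 13.5 CG and an index of 0.381 to 0.435. The share of the smaller list, which is not this index, gave 0.668 (one-sided exact permutation p = 0.0407, unadjusted). The fasting ratio of the number reversed to -0.067 with summits above the p limit common to all lists, to -0.13 at equal depth and to -0.14 without liver (leaving out each tissue, -0.14 to 0.22), none passing the threshold. The difference in promoter share reversed to 0.546 points with the common p limit and ranged from -1.65 to -0.553 when leaving out each tissue. It passed the threshold without brown adipose, the 1 tissue with a positive difference, an outcome that this omission fixed. The pooled stable share of 43.6% was 49.6% with 5 summits, 32.3% with 8, 40.03% with the common p limit, 27.7% among the 500 regions with most summits per library and 41.9% at equal depth. The total was 123480, 15931 and 37681 with 5 summits, 8 summits and equal depth. The alternative of 500 regions fixes number and total and was not run for them. The cause was not tested. No paired analysis was possible by replicate number because the labels give none, and the tests over tissues compare the states within each tissue. The 230 loci with at least 6 summits more and the 529 with at least 6 fewer in the fasting library came to 77 and 177 with summits summed over all listed regions of a locus, a choice made after the data were seen. That sum counts a region listed as several pieces whole.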
